A study of Mus musculus with 3 samples.

Results

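The 29 genes described here make, sense, move and export cholesterol, and they were taken from the 35562 genes measured in mouse myoblast RNA-seq. They were chosen by function, with earlier results of these data known. The set holds 18 genes of cholesterol synthesis, 1 gene of the side branch to longer isoprenoids, 5 genes of SREBP control, 3 genes of uptake and transport inside the cell, and 2 exporter genes. The cells were 3 lines of edited Dmdmdx; Pax7-nGFP myoblasts, numbered 66, 67 and 72, which form 1 condition. All 3 lines share the Dmd-mdx allele corrected by CRISPR/Cas9 editing and the Pax7-nGFP reporter, a nuclear GFP that marks satellite cells, the stem cells of muscle. The edited cells were iPSCs reprogrammed from male embryonic fibroblasts with a STEMCCA cassette, with editing checked in 1 clone, and they were injected into blastocysts that carry Pax7 Cre/ERT2 and Rosa26 lsl-DTA, a host whose own Pax7-expressing cells can be ablated with tamoxifen. Satellite cells sorted from the muscles of such mouse-mouse chimeras gave the myoblast lines. The labels do not say which line came from a tamoxifen-injected chimera, nor whether each came from a chimera of its own, so the spread between lines may be partly technical. Cells of other genotypes were not analysed here, and with 1 condition no test between groups was possible. The values below are levels and the spread over n = 3 lines.

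Cells build cholesterol from acetyl-CoA. The mevalonate arm leads to farnesyl diphosphate, and the sterol arm turns farnesyl diphosphate into squalene, lanosterol and cholesterol. When sterol in the endoplasmic reticulum is low, SCAP escorts the SREBP transcription factors to the Golgi, where they are cut, and the freed part enters the nucleus and switches on genes of synthesis and uptake. INSIG proteins hold SCAP back when sterol is plentiful. Cholesterol taken up with lipoproteins leaves the lysosome through NPC2 and NPC1, and surplus is exported by ABC transporters under the control of the LXR receptors. Myoblasts need cholesterol for membrane growth and for the membranes that fuse into myotubes.

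Levels are given in TPM, a unit of transcript abundance, which are scaled for transcript length and can be set side by side between genes. The libraries held 66972426 to 73274315 estimated counts, and a count of 0 would allow up to 3 counts in a line, which is between 0.0409 and 0.0448 CPM. No member was at or below that floor in any line. Of the 29 members, 25 had a mean of at least 10 TPM, as did 8428 of all genes, and the lowest count behind any of these 25 in a line was 692. Their exact Poisson 95% intervals reached at most 7.52% of the count to a side. These intervals and floors cover counting error only. The myoblast markers Pax7, Myf5, Myod1, Des, Itga7 and Cdh15 had mean levels from 109 to 690.3 TPM. Fibroblast, endothelial and immune markers were near 0, with summed levels of 0.497 to 0.822, 0.431 to 0.883 and 3.10 to 4.55 TPM. Lum of the fibroblast list and Adgre1 of the immune list were at 0 in all 3 lines. The fibroblast markers Pdgfra, at 67.4 to 114 counts, and Col1a1, at 37 to 119 counts, were detected. Cd68, at a mean of 3.68 TPM, made up most of the immune sum.

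The whole route of synthesis was expressed while the 2 exporters were almost silent. On the log2(TPM + 1) scale the median level over the 18 synthesis genes was 4.54 ± 0.02 (SD, n = 3 lines). The corresponding median was 5.66 ± 0.19 for SREBP control, 4.50 ± 0.20 for uptake and transport, and 0.19 ± 0.07 for export. For reference, the median level was 0.88 over all 25510 detected genes and 5.24 over the 8428 genes whose mean reached 10 TPM. SREBP control lay above synthesis in every line, by 1.32, 1.13 and 0.93 in lines 66, 67 and 72 on the same log2 scale. Over protein-coding transcripts alone, synthesis minus SREBP control was −0.72 on average in place of −1.13. Synthesis lay above export by 4.35 ± 0.08, and by 6.56 with a pseudocount of 0.1, since the exporters are near 0.1 TPM. Synthesis could not be ordered against uptake and transport, a group of Stard4, Npc1 and Npc2 that holds no lipoprotein receptor. Their difference was 0.21, 0.08 and −0.18 in lines 66, 67 and 72, a mean of 0.04 ± 0.20 that is smaller than its spread.

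**Figure D1:**
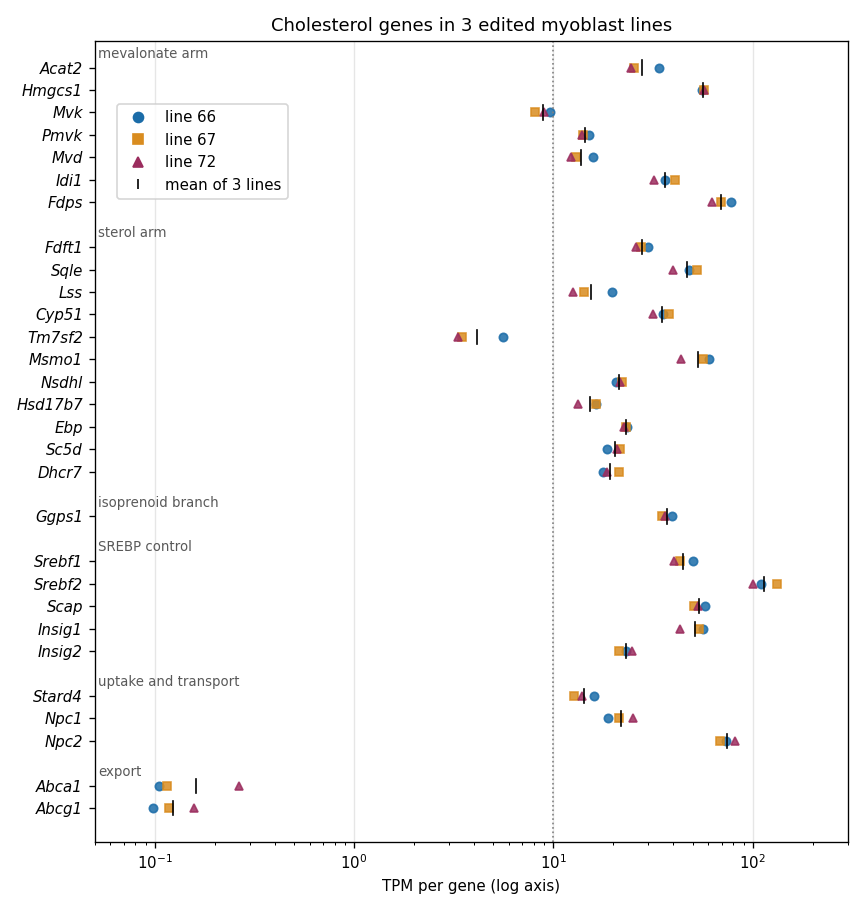
TPM of each of the 29 genes in lines 66, 67 and 72 on a log axis, grouped by role, with a bar at the mean of the 3 lines and a dotted line at 10 TPM. Abca1 and Abcg1 reach at most 0.265 TPM, and 25 of the other genes have a mean above the dotted line.

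Within the mevalonate arm the level differed from step to step. Acat2, the cytosolic thiolase that joins acetyl-CoA units, had 33.8, 25.5 and 24.4 TPM in lines 66, 67 and 72. Hmgcs1, the synthase that makes HMG-CoA, had 55.7, 57.3 and 56.9 TPM, the closest agreement between lines of any member with a mean of at least 10 TPM, with a coefficient of variation (CV, the SD as a percent of the mean) of 1.5%. The kinases and the decarboxylase that follow were lower. Mvk, mevalonate kinase, had 9.63, 8.10 and 8.99 TPM. Pmvk, phosphomevalonate kinase, had 15.1, 14.0 and 13.9 TPM. Mvd, the decarboxylase that makes isopentenyl diphosphate, had 15.9, 13.0 and 12.3 TPM. The level was higher again at the end of the arm. Idi1, the isomerase of isopentenyl diphosphate, had 36.5, 40.6 and 32.2 TPM. Fdps, which makes farnesyl diphosphate, had 77.8, 69.1 and 62.1 TPM and was the most abundant synthesis gene. In every line the 3 genes Mvk, Pmvk and Mvd lay below the other 4 genes of the arm without overlap, and the ratio of Fdps to Mvk in TPM was 7.84 ± 0.83 (SD, n = 3).

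The branch point of the pathway lies at farnesyl diphosphate. Fdft1, squalene synthase, commits it to sterols and had 29.7, 27.5 and 25.9 TPM in lines 66, 67 and 72. Ggps1, which extends it to the geranylgeranyl group used to anchor small GTPases, had 39.3, 35.2 and 36.5 TPM. Summed over all transcripts Ggps1 was the higher gene in each line, with a ratio to Fdft1 of 1.34 ± 0.07 (SD, n = 3). Over coding transcripts alone Ggps1 was also higher, at 35.2, 30.7 and 33.5 TPM against 24.8, 23.9 and 21.8 TPM for Fdft1. Between the main transcripts the order was mixed. Ggps1-201 had 17.7, 16.3 and 18.5 TPM, and Fdft1-201 had 18.8, 18.5 and 17.2 TPM. Ggps1-201 held 44.9%, 46.3% and 50.6% of the TPM of Ggps1, and shorter transcripts held the rest.

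In the sterol arm the 3 genes Sqle, Cyp51 and Msmo1 were the most abundant. Sqle, the squalene epoxidase, had 48.2, 52.6 and 40.0 TPM in lines 66, 67 and 72. Cyp51, the lanosterol demethylase, had 35.3, 38 and 31.6 TPM. Msmo1, the methyl sterol oxidase, had 60.1, 56.2 and 43.6 TPM. Its mean was the highest of the arm over all transcripts, but over coding transcripts alone Sqle was above it in lines 67 and 72. These 3 genes were each lowest in line 72 and lay above every other gene of the arm in every line. Lss, which closes squalene epoxide into lanosterol, had 19.7, 14.2 and 12.6 TPM and the largest CV of the 25 genes, 24.0%. Line 66 lay above the other lines for Lss, and its highest and lowest lines differed 1.56-fold, while in each of the other 24 genes they differed by under 1.5-fold. Tm7sf2, a sterol reductase, was the lowest synthesis gene at 5.60, 3.50 and 3.32 TPM, from counts of 382, 272 and 228. Line 66 was above both other lines for this gene as well. Nsdhl, a sterol dehydrogenase, had 20.6, 22.2 and 21.6 TPM, and Hsd17b7, its partner reductase, had 16.3, 16.3 and 13.3 TPM. Ebp, the sterol isomerase, had 23.5, 23.1 and 22.5 TPM. The CVs of Nsdhl and Ebp, 3.74% and 2.06%, were below the median of 8.74% over all genes averaging at least 10 TPM, and that of Hsd17b7, 11.3%, was above it. Sc5d, the desaturase, had 18.6, 21.5 and 20.9 TPM, and Dhcr7, a reductase of the last steps, had 17.8, 21.3 and 18.5 TPM. Line 66 was the lowest for both. The median level of the mevalonate arm lay above that of the sterol arm by 0.69, 0.19 and 0.17 in lines 66, 67 and 72 on the log2(TPM + 1) scale. The mean difference was 0.35 ± 0.29 (SD, n = 3), and the median of the mevalonate arm was the value of Acat2 in each line. Summed TPM had the other order, with a mean of 228 for the 7 mevalonate genes and 282 for the 11 sterol genes. Summed over its 18 genes, synthesis took 539.7, 524 and 465 TPM, a mean of 509 ± 39.7, which is 0.0509% of all TPM.

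The regulators were more abundant than most of the enzymes. Srebf2, which encodes SREBP-2, the factor that mainly drives cholesterol synthesis, was the most abundant member at 110.4, 132 and 100.5 TPM in lines 66, 67 and 72. Its lowest line lay above the highest line of every other member when all transcripts were summed, but not over protein-coding transcripts alone, where Srebf2 had 73.4, 80.4 and 66.2 TPM and Fdps had 76.7, 68.3 and 61.0 TPM. Over all transcripts 94.4% of detected genes had a lower mean level. Srebf1, which encodes the SREBP-1 forms that mainly drive fatty acid synthesis, had 50.5, 43.1 and 40.2 TPM. The ratio of Srebf2 to Srebf1 was 2.19, 3.06 and 2.50. Scap, the escort protein, had 57.5, 50.7 and 53.3 TPM. Insig1, the retention protein whose gene is itself an SREBP target, had 56.5, 53.8 and 43.0 TPM. Insig2, its relative that responds less to SREBP, had 23.1, 21.4 and 24.8 TPM. Insig1 exceeded Insig2 in each line, and the ratio was 2.45, 2.51 and 1.73, lowest in line 72, where Insig1 was at its lowest and Insig2 at its highest.

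For uptake and transport, Npc2, the soluble lysosomal protein that hands cholesterol on, had 73.1, 68.6 and 81.3 TPM in lines 66, 67 and 72. Npc1, the membrane protein that receives it, had 18.8, 21.3 and 25.1 TPM. Both were highest in line 72, and the ratio of Npc2 to Npc1 was 3.88, 3.22 and 3.23. Stard4, which carries sterol through the cytosol, had 15.9, 12.7 and 13.9 TPM and was highest in line 66. Npc2 and Fdps, neighbours in the order of levels below Srebf2, overlapped between lines and could not be ordered.

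The exporters were the exception to the broad expression of the set. Abca1, which passes cholesterol to apolipoprotein A-I, had 0.105, 0.115 and 0.265 TPM in lines 66, 67 and 72, from counts of 28.0, 35.0 and 91.0. The exact Poisson 95% interval of the count in line 72, 73.3 to 112, lay above those of line 66, 18.6 to 40.5, and line 67, 24.4 to 48.7. Abcg1, which passes cholesterol to HDL particles, had 0.098, 0.118 and 0.158 TPM, from counts of 7.43, 7.13 and 27.7. Both exporters were therefore above the limit of detection and highest in line 72, and 35.9% and 33.2% of detected genes lay below them. Of the LXR receptors that switch on the exporters, Nr1h2 had a mean of 40.8 TPM and Nr1h3 a mean of 0.244 TPM. Nr1h2 exceeded Nr1h3 by 126-fold, 353-fold and 147-fold in lines 66, 67 and 72, ratios that rest on 22, 8 and 8 counts of Nr1h3.

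A gene was said to stand apart when 1 line lay over 1.5-fold above both other lines or over 1.5-fold below both. None of the 25 members with a mean of at least 10 TPM stood apart, which is near the background, since 4.63% of the 8428 genes did. The members did vary between lines. Their median CV was 11.2%, and 10.5% for the 16 synthesis genes among them, against 8.74% for all 8428 genes.

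**Figure D2:**
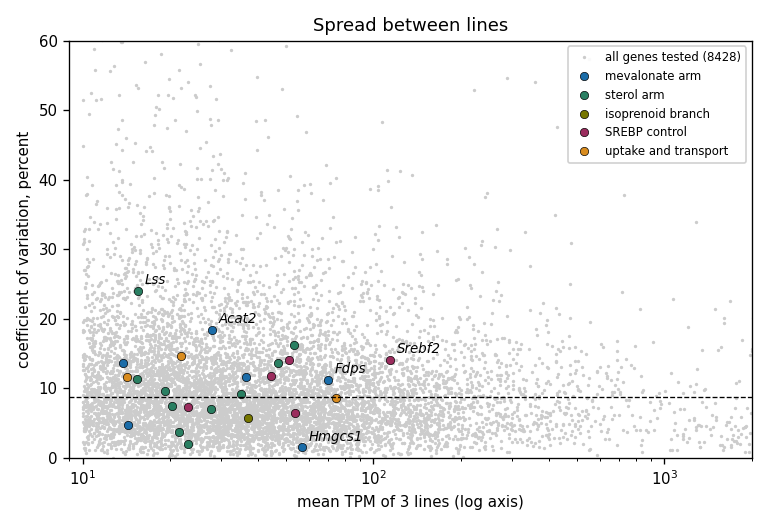
Coefficient of variation over the 3 lines in percent against mean TPM on a log axis, with all 8428 genes averaging at least 10 TPM in grey, the 25 members coloured by role and a dashed line at the median of all genes; 108 genes lie outside the axes. Lss has the highest member CV at 24.0% and Hmgcs1 the lowest at 1.5%.

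The synthesis genes were mostly lowest in line 72, and their highest line was 66 or 67. Line 72 was the lowest of the 3 lines for 12 of the 16 synthesis genes, where this held for 19.6% of all 8428 genes. The 12 were Acat2, Pmvk, Mvd, Idi1, Fdps, Fdft1, Sqle, Lss, Cyp51, Msmo1, Hsd17b7 and Ebp. For the remaining 4, Hmgcs1, Nsdhl, Sc5d and Dhcr7, line 66 was the lowest, which held for 47.7% of all genes. None was lowest in line 67, where 32.7% of all genes were. All 16 had less TPM in line 72 than in line 67, which was so for 37.9% of all genes, and 12 of 16 had less in line 72 than in line 66, which was so for 35.9% of all genes. The sizes were small. The median log2 ratio of line 72 to line 66 was −0.19 for the synthesis genes and 0.08 for all genes, and that of line 72 to line 67 was −0.12 and 0.05. Of the same 16 genes, 8 were highest in line 66, 8 in line 67 and 0 in line 72, where 28.1%, 26.2% and 45.7% of all genes were. With TMM-scaled counts, DESeq2 size factors, coding transcripts alone or chromosome medians subtracted, 10 of the 16 were highest in line 66, where between 24.8% (chromosome medians) and 36.3% (TMM) of all genes were. The full order of line 66 over 67 over 72 was found in 8 of the 16, against 11.7% of all genes.

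The comparison with all genes depends on how the libraries are scaled. With TMM-scaled counts, 14 of the 16 synthesis genes were lowest in line 72, and the share of all genes was 34.0% in place of 19.6%. With DESeq2 size factors the values were 14 of 16 and 32.6%. Under both scalings all 16 were lower in line 72 than in line 67, with 55.9% and 54.4% of all genes. Genes of 1 pathway are regulated together, so the 16 are not independent and no test was made of these counts.

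**Figure D3:**
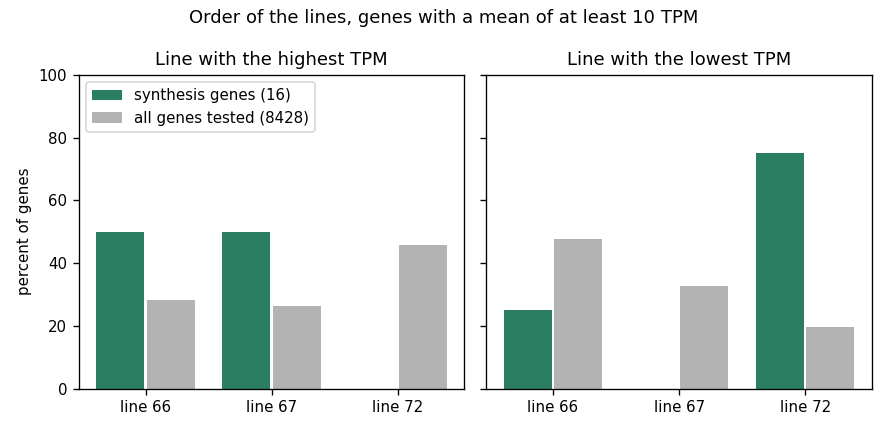
Percent of the 16 synthesis genes (green) and of all 8428 genes (grey) whose highest TPM (left) or lowest TPM (right) was in line 66, 67 or 72, for genes averaging at least 10 TPM. In line 72 were the lowest values of 75% of the synthesis genes and of 19.6% of all genes.

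Among the regulators and transporters the order was mixed. Srebf1, Srebf2 and Insig1 were also lowest in line 72. Scap, Ggps1, Insig2, Npc2 and Stard4 were lowest in line 67, and Npc1 in line 66. Of all 25 members, 15 were lowest in line 72 (19.6% of all genes), 13 were highest in line 66 (28.1%) and 9 in line 67 (26.2%). The 3 members highest in line 72, where 45.7% of all genes were, were Insig2, Npc1 and Npc2, none of which makes sterol.

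**Figure D4:**
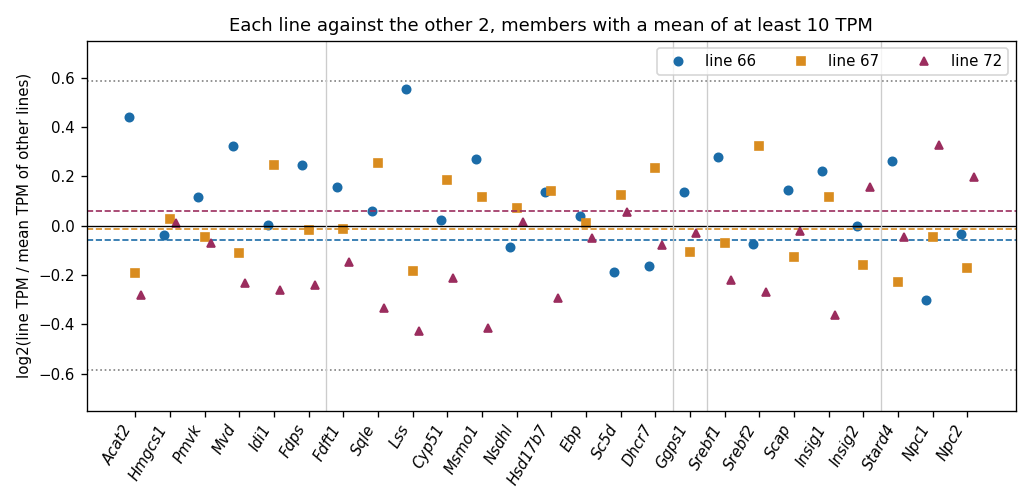
Log2 ratio of the TPM in each line to the mean TPM of the other lines for the 25 members with a mean of at least 10 TPM, in pathway order, with vertical lines between roles, dotted lines at 1.5-fold and dashed lines at the median of all 8428 genes for each line. Line 72 lies below 0 for most synthesis genes and above 0 for Insig2, Npc1 and Npc2.

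Markers of differentiating and of dividing cells differed between lines as well. The markers of differentiating muscle, Myog, Mymk, Myh3 and Ckm, summed to 444, 597 and 779 TPM in lines 66, 67 and 72, and all 4 were highest in line 72 and lowest in line 66. The markers of dividing cells, Mki67, Top2a and Ccnb1, summed to 268, 376 and 353 TPM, and all 3 were lowest in line 66 and highest in line 67. The myoblast markers summed to 1977, 1902 and 1809 TPM with no common order, as 2 of the 6 were highest in each line. Myod1 had 791, 702 and 579 TPM, while Pax7 had 136, 143 and 154 TPM. The part of these lists in the order of the synthesis genes was not tested. In bulk samples fewer cells of a type and less RNA per cell cannot be told apart.

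Chromosomes 10 and 11 also differed between lines. In line 66, after subtracting the value of all genes, the median log2 ratio to the average of both other lines was 0.29 over 427 genes of chromosome 10 and 0.33 over 699 genes of chromosome 11, and on both it was negative in lines 67 and 72. Lss is on chromosome 10 and Srebf1 on chromosome 11, and both were highest in line 66. The remaining 15 of the 16 synthesis genes are on other chromosomes. With the median of each chromosome subtracted, 13 of the 16 synthesis genes and 18.4% of all genes were lowest in line 72.

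The TPM of a gene sums transcripts of several kinds, and for part of the set many of them are not protein-coding. The 29 members had 178 listed transcripts, and by its mean over the lines the leading transcript of each was protein-coding. In 12 members, under 80% of the TPM came from protein-coding transcripts. Lss was the extreme, with 36.5%. Its full-length transcript Lss-201 had 6.59, 5.42 and 4.53 TPM in lines 66, 67 and 72, and non-coding transcripts, short or intron-retaining, supplied most of the rest. The order of the lines was the same in the coding transcript as in the gene. Over coding transcripts alone the highest line changed in Hsd17b7, Dhcr7 and Scap, and the lowest in Dhcr7, Srebf1, Insig2 and Npc1, so 6 of the 25 members changed in either. In Dhcr7 both changed. A short processed transcript of 230 bases, Dhcr7-213, held 24%, 41% and 30% of its TPM from 13.1, 24.9 and 16.3 counts, and over coding transcripts alone the gene had 12.6, 11.1 and 11.4 TPM, highest in line 66 and no longer in line 67. For Scap, the intron-retaining Scap-202 held 35.8%, 30.7% and 31.2% of the TPM. Over coding transcripts alone Srebf1 had 31.6, 22.7 and 22.8 TPM, and the ratio of Srebf2 to Srebf1 was 2.32, 3.54 and 2.90.

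**Figure D5:**
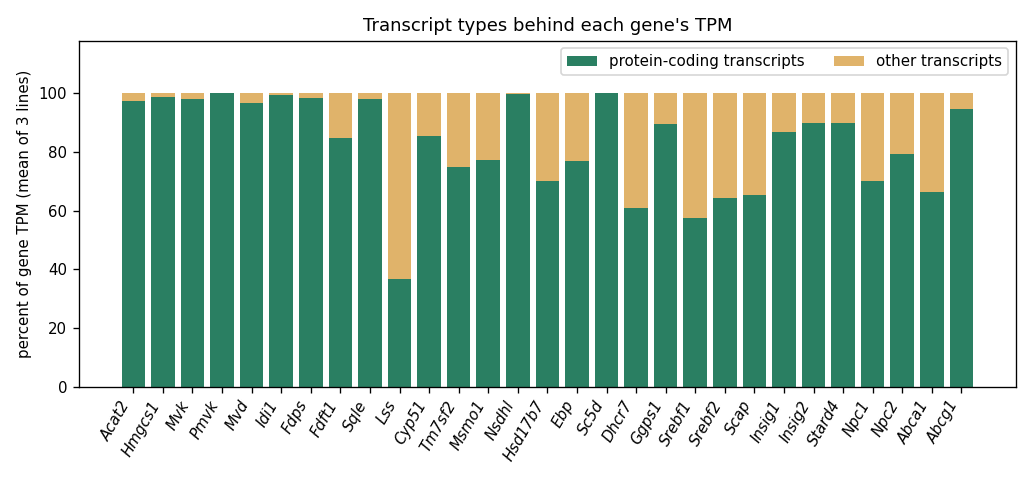
Percent of each gene's TPM, as the mean of 3 lines, from protein-coding transcripts (green) and from other transcripts (yellow). The share from protein-coding transcripts is lowest in Lss, at 36.5%, and reaches 100% in Pmvk and Sc5d.

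Srebf1 has 2 well-known starts, which give SREBP-1a, with the longer activation domain, and SREBP-1c. In the GENCODE M21 annotation on GRCm38, Srebf1-201 has its first exon at chr11:60220453-60220604 with 91 coding bases, and Srebf1-207 has its first exon downstream on the minus strand at chr11:60210336-60210465 with 19 coding bases, the layouts of the 1a and the 1c form. Srebf1-201 had 23.1, 17.4 and 18.2 TPM and Srebf1-207 had 6.10, 4.05 and 3.38 TPM in lines 66, 67 and 72. The upstream form exceeded the downstream form 3.79-fold, 4.30-fold and 5.38-fold, and it made up 79.1%, 81.1% and 84.3% of the 2. The forms share most of their sequence, so the split rests on the reads that tell them apart.

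Most members can be told from other genes by sequence. In 26 of the 29, at least 95% of the 31-base words of their transcripts occurred in no other gene. The exceptions were Acat2, which shares 43.7% of its words with Acat3 (1.36 TPM), Fdps, which shares 24.6% with Gm43738 (0.0717 TPM), and Tm7sf2, which shares 10.7% with Vps51 (30.7 TPM). The values of these 3 genes are less certain for that reason.

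The promoters are shown because the pathway is known to be driven by SREBP with the cofactor NF-Y, which binds CCAAT. They are reference sequence, the same for every line, so they cannot bear on the order of the lines. The activity of SREBP or NF-Y in the lines was not tested. The RefSeq table on GRCm38.p6 held a promoter, 250 bases before to 50 after the start, for 23 of the 29 members. Fdps, Fdft1, Sqle, Stard4, Npc1 and Abcg1 had no entry. The 250 bases before the start are printed 5′ to 3′ on the strand of the gene, with capitals marking each match to TCACNCCAC, a form of the sterol regulatory element, or to CCAAT on either strand (ATTGG where it lies on the other strand). Hmgcs1 (chr13:119690101-119690350, plus strand) is the only member with TCACNCCAC. Mvk (chr5:114444019-114444268, plus strand) has the most CCAAT matches. Srebf2 (chr15:82147019-82147268, plus strand) is the most abundant member, and Abca1 (chr4:53159896-53160145, minus strand) is the exporter in the table and has neither motif.
Hmgcs1: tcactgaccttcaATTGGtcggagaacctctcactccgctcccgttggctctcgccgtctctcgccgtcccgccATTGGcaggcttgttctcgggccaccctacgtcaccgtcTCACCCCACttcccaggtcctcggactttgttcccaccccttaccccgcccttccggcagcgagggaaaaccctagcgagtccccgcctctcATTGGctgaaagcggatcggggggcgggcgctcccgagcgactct
Mvk: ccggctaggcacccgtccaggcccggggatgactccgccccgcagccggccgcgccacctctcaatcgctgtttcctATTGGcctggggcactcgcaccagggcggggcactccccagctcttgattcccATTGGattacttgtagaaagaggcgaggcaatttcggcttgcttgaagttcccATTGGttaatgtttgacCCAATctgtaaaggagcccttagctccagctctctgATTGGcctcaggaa
Srebf2: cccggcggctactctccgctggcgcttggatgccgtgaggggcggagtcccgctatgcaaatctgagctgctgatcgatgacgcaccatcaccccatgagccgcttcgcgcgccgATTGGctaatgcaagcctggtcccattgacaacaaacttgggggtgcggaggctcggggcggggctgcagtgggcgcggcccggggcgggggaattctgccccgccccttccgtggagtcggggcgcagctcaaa
Abca1: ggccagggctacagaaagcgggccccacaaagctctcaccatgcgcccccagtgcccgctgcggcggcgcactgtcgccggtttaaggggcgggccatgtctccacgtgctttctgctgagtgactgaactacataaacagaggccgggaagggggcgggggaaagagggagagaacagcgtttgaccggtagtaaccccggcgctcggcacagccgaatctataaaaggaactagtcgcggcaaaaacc

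TCACNCCAC, searched on both strands, was found in 1 of the 23 members, as TCACCCCAC with its first base 137 bases before the start of Hmgcs1. By gene, this motif was found in 1.44% of all 27025 genes in the table and in 1.40% of the 6728 with a mean of at least 10 TPM. By promoter, it was found in 1.24% of all 32851 of this length. No match says only that these letters are not in the window. CCAAT, searched on both strands after the result of the first motif was known, was found in 20 of the 23 members and in 14 of the 15 synthesis genes in the table. Acat2, Scap and Abca1 had none. Of all promoters 37.4% held it, and of the 6728 genes in the table with a mean of at least 10 TPM 43.4% did. In Hmgcs1 the 3 matches began 237, 176 and 45 bases before the start, and in Mvk the 5 matches began 173, 120, 67, 50 and 14 bases before it. In the printed promoters the 2 motifs did not overlap. A match is a description of the letters and not a bound site.

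The other genes of the pathway were also expressed broadly. A list of 42 such genes held 33 with a mean of at least 10 TPM, and none of these stood apart in 1 line, against 4.63% of all genes. Of these 33, 10, 12 and 11 were highest in lines 66, 67 and 72, where 28.1%, 26.2% and 45.7% of all genes were. In the same lines 14, 10 and 9 of the 33 were lowest, where 47.7%, 32.7% and 19.6% of all genes were. The lists differed, counted here without a minimum level. Of the 10 fatty acid genes under SREBP-1, 6 were lowest in line 72: Acaca, Fasn, Scd1, Elovl6, Fads1 and Fads2. Line 72 was lowest for 1 of 5 genes of SREBP processing and 0 of 9 of isoprenoid use. It was lowest for 1 of 9 genes of esterification, release and transfer, and 2 of 9 of LXR and lipoprotein receptors. All 5 genes that process SREBP or degrade its partners passed 10 TPM, from Rnf139, a ubiquitin ligase, at 16.5 TPM to Pgrmc1, a haem-binding membrane protein, at 102 TPM. Of 10 fatty acid genes under SREBP-1, 9 passed, led by Scd2, a stearoyl-CoA desaturase, at 206 TPM, and the lowest was Acss2, an acetyl-CoA synthetase, at 2.63 TPM. All 9 genes that use isoprenoids passed, from Pdss2, a subunit of the enzyme that makes the ubiquinone tail, at 11.5 TPM to Rabggtb, a subunit of the Rab prenyltransferase, at 104 TPM. Of 9 genes of esterification, lysosomal release and transfer, 7 passed, led by Soat1, which stores cholesterol as esters, at 139 TPM, with Stard5 lowest at 5.77 TPM. Of 9 LXR and lipoprotein receptor genes 3 passed, with Lrp1, a large endocytic receptor, highest at 79.9 TPM and Nr1h3 lowest. Soat1 had 139, 156 and 123 TPM in lines 66, 67 and 72. Abca7, an ABC lipid transporter, had a mean of 8.26 TPM and Scarb1, a receptor for HDL that can move cholesterol both ways, one of 19.4 TPM. Abcg4, an ABC transporter of the same list, had a mean of 0.391 TPM. All 3 are named here after their values were seen. Of the genes below 10 TPM, Lrp8 and Abcg4 stood apart above in line 67, Nr1h3 below in line 67 and Vldlr below in line 66. With no minimum 44.3% of all genes stood apart.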

How the data were processed

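RNA-seq libraries (poly-A selected, stranded) of 3 edited myoblast lines in 1 condition were used, with the line as the replicate. The authors deposited an estimated count for each transcript, not normalized, in the layout of kallisto. The authors also deposited TPM values, the estimated count per effective length scaled to 1000000 per library. The submitters' processing notes list bcl2fastq 2.20, fastp 0.20, kallisto 0.46.1 and GRCm39, and give no role for each here. The strand setting is not given in the sources used here, so overlapping antisense genes cannot be told apart with certainty.

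Transcripts were matched by identifier to GENCODE M21 (GRCm38), which gave genes, types and coordinates; 1112 of 121798 transcripts, holding 0.493% to 0.535% of counts, had no match and were left out. TPM and estimated counts were summed per gene. No test between groups was run, since there is 1 condition. Levels were taken as log2(TPM + 1), and genes were compared between lines when their mean was at least 10 TPM. The 3 libraries held different values: at most 0.0237% of these genes had equal counts in a pair of lines. Counting precision was given as exact Poisson 95% intervals. The script that makes the calls was tested on simulated data. Alternatives used CPM, a pseudocount of 0.1, coding transcripts alone, other filters, a 2-fold limit, TMM factors (edgeR 4.0.16) and size factors (DESeq2 1.42.0), both from estimated counts rounded to whole numbers, and each line left out. Promoters came from RefSeq (GRCm38.p6). Python 3.11.15, pandas 2.3.3, scipy 1.17.1 and R 4.3.3 were used.

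The members, gene lists and order of the lines were chosen with earlier results of these data known. All members were to be named, and of the other pathway genes those that stand apart and the highest and lowest of each list. Nr1h2 was added to these as the partner of Nr1h3. The search for CCAAT was added after seeing the data. Of the other pathway list, 3 genes are not reported here.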

Additional observations from a re-analysis of the deposited data

How the results depend on the processing

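The counts of genes by order of the lines kept within 1.5 times their value under TMM scaling, size factors, coding transcripts alone, a 1 TPM minimum and subtraction of chromosome medians, all chosen after seeing the data: 12 to 14 synthesis genes were lowest in line 72, 15 to 17 lower in line 72 than in line 67, 12 to 14 lower than in line 66, and 8 to 10 highest in line 66. The 1 TPM minimum tested 18 synthesis genes, and 17 of the 18 were lower in line 72 than in line 67. The other settings tested 16. The share of all genes moved too, from 35.9% to 50.1% (TMM) and 49.1% (size factors) for line 72 below line 66. For highest in line 66 it was between 24.8% and 36.3%. Of 105 values of comparisons under an alternative, 80 kept within their limits and 3 reversed. The difference of synthesis minus uptake and transport, smaller than its spread, turned to −0.85 with CPM and ranged from −0.048 to 0.15 with each line left out, negative without line 66; over coding transcripts it was 0.42. The median of export was −2.07 with a pseudocount of 0.1, because its values are below 1 TPM. That pseudocount also gave 4.43 for the sterol arm, 4.48 for synthesis and 6.56 for synthesis minus export. CPM, which keeps transcript length in the values, gave 5.21 for the mevalonate arm, 5.04 for the sterol arm, 5.11 for synthesis, 6.49 for SREBP control, 5.95 for uptake and transport and 0.51 for export, with −1.39 for synthesis minus control, 4.60 for synthesis minus export and a synthesis sum of 692. Coding transcripts alone gave 4.41 for the sterol arm, 4.45 for synthesis, 5.17 for control and 4.03 for uptake and transport, −0.72 for synthesis minus control and a synthesis sum of 455 TPM. With members of at least 10 TPM alone synthesis was at 4.68, and export had no value, as no exporter passes. With a 1 TPM minimum 1 member stood apart (Tm7sf2; 11.3% of all genes), and with no minimum 2 did (Abca1 and Tm7sf2; 44.3%). Of 116 member levels under an alternative, 102 moved by less than 1 SD, and the rest moved with coding transcripts alone. No paired analysis was possible because there is 1 condition. Depth limits the 2 exporters, whose counts were 7.13 to 91.0.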
